A study of Mus musculus with 16 samples.

Results

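The mammary glands of socially isolated mice were compared between 15 and 20 weeks of age. The comparison used every array whose title names isolated housing, 8 of the 16 arrays in the series, with 4 at 15 weeks and 4 at 20 weeks. The other 8 arrays came from group-housed females of the same ages. All animals were FVB/N females, homozygous for a transgene of the SV40 large T antigen (Tag), expressed from the C3(1) fragment of a rat prostatic steroid binding protein gene promoter. Every group therefore carried the transgene, and no gland without it was analysed here. Isolated mice were housed singly after weaning. All mice were killed in estrus and at a fixed hour of the dark phase. Total RNA of the whole frozen thoracic gland was hybridized, so epithelium, fat, stroma, vessels, immune cells and attached muscle contributed together. Fewer cells of a type and less RNA per cell cannot be told apart in such samples. Arrays are numbered within a group, and no label states that each is a separate animal. The p-values reflect only the scatter of these samples, part of which may be technical.

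Large T antigen is a viral oncoprotein that binds and inactivates p53 and the proteins of the Rb family, which hold E2F transcription factors in check and so restrain entry into DNA synthesis. The C3(1) promoter directs it to epithelium, including that of the mammary ducts, where lesions progress from hyperplasia to carcinoma as the mice age. A virgin gland is mostly adipose tissue crossed by a thin ductal tree. Its adipocytes make and store fatty acids, and its luminal cells make small amounts of milk protein transcripts under prolactin.

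Levels are given on the log2 scale of the deposited values after the 8 arrays were put on a common distribution (quantile normalization), so a difference of 1 is a 2-fold change. Differences are 20 minus 15 weeks, and values per array are listed in the order of replicates 1 to 4, a number that carries no order. Each of 18193 genes was tested with limma, and a gene was said to rise or fall when its Benjamini-Hochberg adjusted p over all genes was below 0.05. Most cell type markers checked lay above the median gene, while the T cell marker Cd3d (7.14) and the B cell marker Cd79a (7.61) lay below it at 15 weeks. Levels averaged over the 15 week arrays were 12.2 for Krt8 (luminal epithelium), 10 for Krt5 (basal epithelium), 14 for Adipoq (adipocytes), 13.5 for Dcn (fibroblasts), 9.44 for Cdh5 (endothelium) and 14.6 for Acta1 (skeletal muscle), against a median gene level of 8.99. As deposited, the medians of the arrays were 8.09 to 8.11 at 15 weeks and 8.31 to 8.34 at 20 weeks. Controls that the mouse does not make shifted too, the 27 bacterial ones by 0.14 and the 18 for hybridization by 0.16, beside 0.24 over the other probe sets. After normalization the shifts were -0.027, -0.064 and 0.013. The 2 ages may have been processed separately, which no label records, and age and such processing cannot be told apart. The 3 prime minus 5 prime difference of the Gapdh control, a sign of RNA degradation, was -0.021 ± 0.025 at 15 weeks and -0.021 ± 0.034 at 20 weeks (SD, n = 4 each), with 1 as the exact two-sided permutation p, for which 0.0286 is the smallest value possible. For actin it was 0.269 ± 0.020 and 0.303 ± 0.079 (exact permutation p = 0.571).

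Many genes differed between the ages. At 20 weeks 4488 genes were higher (24.7% of those tested) and 4689 lower (25.8%), 50.4% in all, and the groups did not overlap in 48.5% of genes. These shares are the background against which the counts below stand. A test against a log2 difference of 0.25 kept 2523 genes (13.9%), of which 1088 were higher (5.98%) and 1435 lower (7.89%). Decreases of at least 2-fold outnumbered such increases, with 407 genes (2.24%) against 115 (0.632%), together 2.87%. The median difference over all genes was -0.0065. Lists of genes of adipose metabolism held the most negative medians, and lists of activated stroma matrix, acute inflammation and cell division the most positive ones. Normalization set the balance of directions. On the values as deposited 10432 genes were higher and 1693 lower, so that 86.0% of calls were higher, against 48.9% here. The counts of lists with small medians moved with it. On those values the counts of fallen members were 12 in the respiratory chain list, 3 in basement membrane, 3 in endothelium, 2 in glucocorticoid response, 2 in Notch, 1 in T and NK cells, 1 in B and plasma cells, 0 in mast cells and 0 in class II presentation. The counts of risen members were 20 in the TGF beta and BMP list, 17 in macrophages, 15 in fibrillar collagens, 15 in chemokines, 15 in the proteasome, 14 in Wnt, 13 in chaperones, 13 in interferon response, 13 in immediate early genes, 12 in DNA repair, 11 in squamous epithelium, 7 in insulin-like growth factors, 5 in complement and 1 in red blood cells. In the other lists this count, taken in the list's main direction, stayed within 1.5 times of the one given below. The lists were written with earlier results of these arrays known, so their counts are descriptions.

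**Figure D1:**
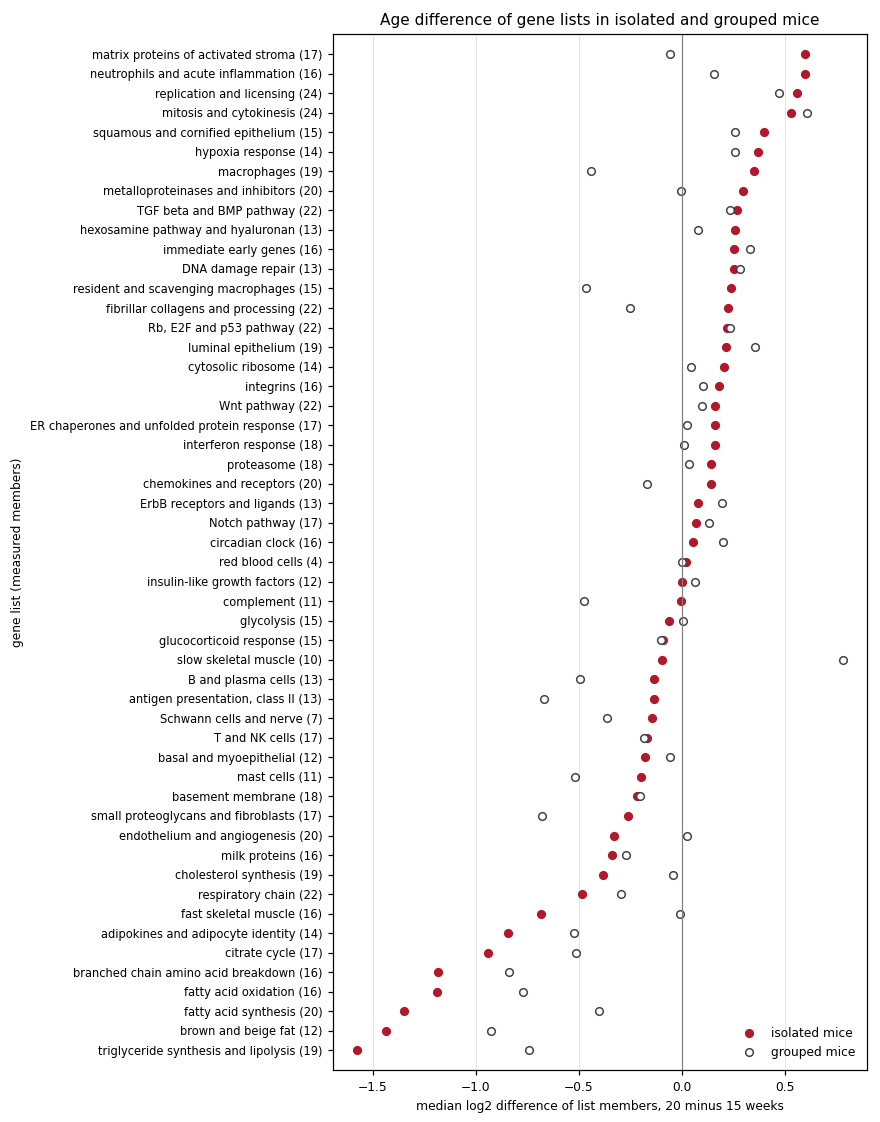
Median log2 difference (20 minus 15 weeks) of the members of each gene list, with the number of measured members in brackets, for isolated mice (filled points) and grouped mice (open points). In isolated mice the medians ran from -1.58 for triglyceride synthesis and lipolysis to 0.60 for matrix proteins of activated stroma.

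Casein genes, which encode the main proteins of milk, had the deepest falls, with the 2 largest of all genes tested in Csn1s2a and Csn2. Csn1s2a, the alpha-S2-like casein, measured 10.18, 11.03, 10.22 and 11.05 at 15 weeks and 5.82, 6.40, 6.05 and 6.13 at 20 weeks. It fell 22.9-fold (log2 difference -4.52, SE 0.22, limma adjusted p = 5.37e-06), and every 20 week gland lay below every 15 week gland. Csn2, beta-casein, measured 10.96, 11.36, 10.81 and 11.40 at 15 weeks and 7.83, 7.92, 7.92 and 8.28 at 20 weeks, and fell 8.86-fold (log2 difference -3.15, SE 0.15, limma adjusted p = 5.03e-06). Csn1s1, alpha-S1-casein, measured 11.39, 11.62, 11.23 and 11.44 at 15 weeks and 9.73, 9.70, 9.54 and 9.36 at 20 weeks (log2 difference -1.84, SE 0.10, limma adjusted p = 8.59e-06). In all 3 genes the gap between the ages was wider than the whole range within either age. Lalba, the alpha-lactalbumin subunit of lactose synthase, also fell (log2 difference -0.85, SE 0.097, limma adjusted p = 0.000164). Of 16 measured genes of the milk list, 8 fell and 2 rose, and 6 fell past 0.25. The list median was -0.34, and members such as the whey acidic protein gene Wap (-0.11, limma adjusted p = 0.474) did not pass the test. The losses were thus uneven across milk genes.

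Sequence upstream of Csn2 and Csn1s1 is shown. They were the milk list genes passing the test in which the STAT5 motif described next was found upstream of the start. Csn1s2a, which fell furthest, gave no such match or had no promoter entry. STAT5, the factor through which prolactin acts on casein genes, binds sites of the form TTCNNNGAA. The strings below are 100 bases of RefSeq sequence of build GRCm38.p6 around a match upstream of the annotated transcription start. Counted in bases from that start, they begin at -143 in Csn2 and -150 in Csn1s1, and the match begins at -93 and -100. The sequence is written 5 prime to 3 prime on the gene's strand, with the match in capitals.

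Csn2, chr5:87699469-87699568, - strand: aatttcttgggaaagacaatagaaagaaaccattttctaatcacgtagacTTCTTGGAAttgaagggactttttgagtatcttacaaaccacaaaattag

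Csn1s1, chr5:87666058-87666157, + strand: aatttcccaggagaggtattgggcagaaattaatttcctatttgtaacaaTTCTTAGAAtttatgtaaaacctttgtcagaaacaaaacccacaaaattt

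The motif was found on either strand of the 300 bases around the start (250 upstream and 50 downstream) in 4 of 11 milk list genes with a promoter entry (36.4%) and in 8.57% of 14452 measured genes. A match is a description of the letters and was not tested as a binding site. The 10 motifs read were chosen after the expression values were seen, and not all of them are given here.

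Fatty acid synthesis fell throughout. All 20 measured members of the list fell, 17 of them past 0.25, with differences from -2.57 to -0.24 and a median of -1.35, against a background of 25.8% of genes lower. Acss2, which makes acetyl-CoA from acetate in the cytosol, measured 12.60, 12.50, 12.67 and 12.54 at 15 weeks and 9.51, 9.70, 9.74 and 11.08 at 20 weeks (log2 difference -2.57, SE 0.29, limma adjusted p = 0.000166). Acaca, the acetyl-CoA carboxylase that makes the malonyl-CoA for fatty acid synthesis, measured 13.19, 13.09, 13.33 and 13.12 at 15 weeks and 11.31, 11.33, 11.22 and 12.51 at 20 weeks (log2 difference -1.59, SE 0.25, limma adjusted p = 0.000896). The fourth 20 week gland was the highest of its age for both genes and still lay below every 15 week gland. Acacb, the mitochondrial carboxylase, fell by 2.38 (SE 0.37, limma adjusted p = 0.00077). Acly, ATP citrate lyase, which supplies cytosolic acetyl-CoA from citrate, measured 14.02, 13.92, 14.05 and 13.95 at 15 weeks and 12.37, 12.44, 12.46 and 13.47 at 20 weeks (log2 difference -1.30, SE 0.22, limma adjusted p = 0.00111). Its 3 lowest 20 week glands lay more than 1 log2 unit below the 15 week group. Enzymes that feed the pathway fell as well. The malic enzyme Me1, a source of NADPH, fell by 2.11 (limma adjusted p = 5.7e-05), and the pyruvate carboxylase Pcx by 2.15 (limma adjusted p = 6.19e-05). Mlxipl, the carbohydrate response factor ChREBP that drives lipogenic genes, fell by 1.88 (limma adjusted p = 8.86e-05). Fasn, the fatty acid synthase itself, fell by 1.21 (limma adjusted p = 0.00236), and Srebf1, another lipogenic regulator, by 0.95 (limma adjusted p = 0.000285). Fasn and Srebf1 were added after their values were seen.

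Triglyceride synthesis and breakdown fell together. Of 19 measured members, 18 fell, 15 of them past 0.25, with a median of -1.58. Dgat2, which adds the last acyl chain of a triglyceride, measured 13.17, 13.13, 13.35 and 13.13 at 15 weeks and 10.42, 10.98, 10.77 and 11.89 at 20 weeks (log2 difference -2.18, SE 0.26, limma adjusted p = 0.000192). Dgat1, its partner enzyme, fell by 1.53 (SE 0.17, limma adjusted p = 0.000135), and Aqp7, the glycerol channel of adipocytes, by 1.79 (limma adjusted p = 8.51e-05). Mogat2, a monoacylglycerol acyltransferase, fell by 1.11 and Abhd5, the activator of adipose triglyceride lipase, by 0.68 (limma adjusted p = 1.37e-05 and 0.000142). Enzymes of storage and of lipolysis thus moved in the same direction.

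Genes of adipocyte identity fell with the metabolic genes. Adipoq, the adipocyte hormone adiponectin, measured 14.01, 14.07, 14.03 and 14.06 at 15 weeks and 12.02, 12.73, 12.43 and 13.22 at 20 weeks (log2 difference -1.44, SE 0.21, limma adjusted p = 0.000514). The first 20 week gland was the lowest, about 2 log2 units below the 15 week group, and the fourth was the closest to it. Lep, leptin, measured 9.64, 9.78, 9.80 and 9.71 at 15 weeks and 8.04, 7.94, 7.40 and 8.16 at 20 weeks (log2 difference -1.85, SE 0.14, limma adjusted p = 3.23e-05), and Retn, resistin, measured 13.17, 13.26, 13.15 and 13.23 at 15 weeks and 11.47, 11.72, 11.19 and 11.81 at 20 weeks (log2 difference -1.66, SE 0.12, limma adjusted p = 2.52e-05). Slc2a4, the insulin-responsive glucose transporter GLUT4, fell by 1.57 and Acvr1c, the activin receptor ALK7, by 0.43 (limma adjusted p = 0.000176 and 0.000345). Of 14 adipokine and adipocyte identity genes 13 fell and 1 rose (median -0.85). The member that rose was Cebpb (0.30), a transcription factor also made in other cell types. Cebpb missed the threshold without any of replicates 1, 2, 3 or 4 at 15 weeks or any of replicates 1, 2 or 4 at 20 weeks (limma adjusted p from 0.052 to 0.0923). Fabp4, the adipocyte fatty acid carrier, differed by -0.44 (limma adjusted p = 0.0212), a smaller loss than Adipoq. Fabp4 missed the threshold without replicate 3 at 15 weeks (limma adjusted p = 0.0506). How far the loss of adipocyte transcripts accounts for that of the lipid enzymes was not tested.

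**Figure D2:**
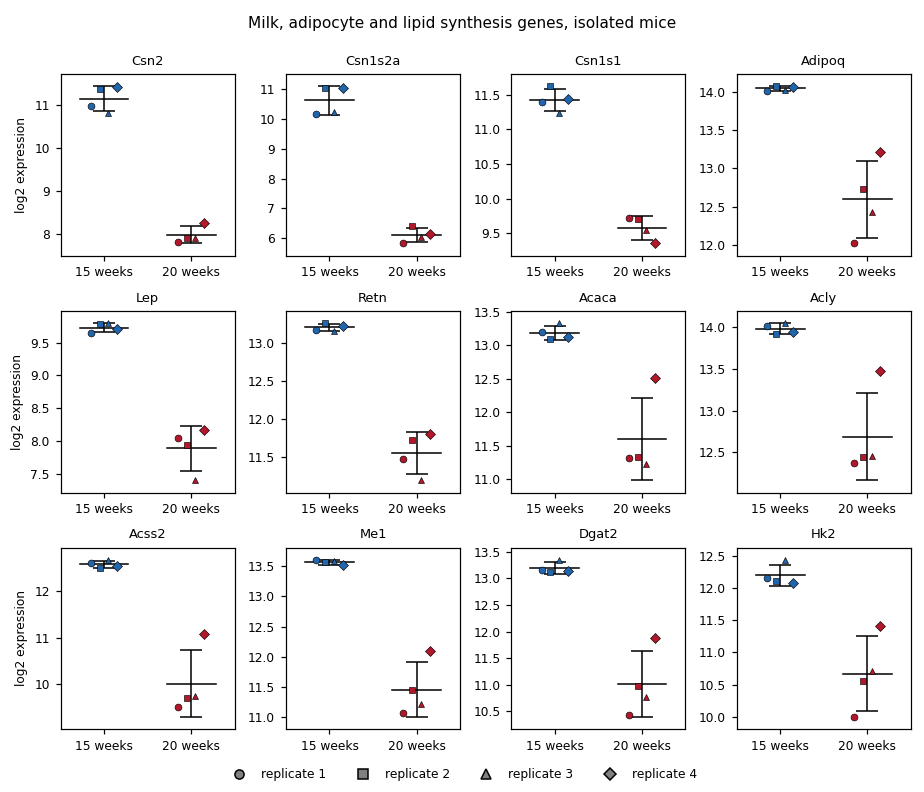
Log2 expression of 12 milk, adipocyte and lipid genes on each array at 15 and 20 weeks, with bars at the mean and error bars of 1 SD (n = 4). Marker shapes give the replicate number, and in every panel all 20 week arrays lie below all 15 week arrays. The genes were picked from those named in the text. Over all genes, the ages did not overlap in 48.5%.

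Brown and beige fat genes, which serve heat production, were also lower. Of 12 measured members 10 fell, 4 of them past 0.25, with a median of -1.44. The median net of all genes (the list median minus that of all genes) was -0.80 without replicate 1 at 20 weeks, against -1.43 with all arrays. The count of fallen members was 5 without replicate 2 at 15 weeks or replicate 3 at 15 weeks, and 6 without replicate 1 at 15 weeks, replicate 4 at 15 weeks or replicate 2 at 20 weeks. Ppargc1a, the coactivator of mitochondrial gene expression, measured 8.76, 8.92, 8.90 and 8.89 at 15 weeks and 6.82, 7.41, 7.07 and 8.11 at 20 weeks (log2 difference -1.51, SE 0.23, limma adjusted p = 0.000708), and its relative Ppargc1b fell by 0.79 (limma adjusted p = 0.000951). The brown fat transcription factors Lhx8 and Zic1 fell by 0.74 and 0.26 (limma adjusted p = 0.000217 and 0.00251). Ucp1, the uncoupling protein of brown fat, measured 13.41, 13.40, 13.51 and 13.38 at 15 weeks and 8.65, 12.16, 12.74 and 13.53 at 20 weeks, and the ages overlapped (log2 difference -1.65, SE 0.86, limma adjusted p = 0.138). Without replicate 4 at 20 weeks, Ucp1 passed (-2.25, limma adjusted p = 0.049).

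Cholesterol synthesis moved less uniformly than fatty acid synthesis. Of 19 measured members 10 fell and 2 rose, and the median was -0.38. Insig1, the sterol sensor that retains SREBP in the endoplasmic reticulum, measured 11.86, 11.85, 12.000 and 11.91 at 15 weeks and 9.92, 9.53, 9.49 and 10.39 at 20 weeks (log2 difference -2.07, SE 0.17, limma adjusted p = 4.48e-05). Among the enzymes, Sc5d differed by -0.89, Nsdhl by -0.82 and the squalene synthase Fdft1 by -0.77 (limma adjusted p = 4.98e-05, 5.3e-05 and 9.44e-05). Squalene epoxidase, Sqle, did not pass the test (-0.20, limma adjusted p = 0.162). Without replicate 1 at 20 weeks, Sqle passed (-0.28, limma adjusted p = 0.0415). The CCAAT box stood in the promoter of 16 of 16 cholesterol list genes with an entry and in 42.0% of all. It was not particular to this list, with 17 of 20 mitotic, 14 of 21 replication, 12 of 16 fatty acid and 5 of 11 milk list genes. The sterol response motif TCACNCCAC stood in 1 of 16 cholesterol and 1 of 16 fatty acid list genes and in 1.46% of all.

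Mitochondrial pathways fell along their length. All 16 measured genes of branched chain amino acid breakdown fell (median -1.18), as did all 17 of the citrate cycle (-0.94) and all 22 of the respiratory chain (-0.49), and 15 of 16 of fatty acid oxidation (-1.19). Past 0.25 the counts were 15, 13, 7 and 11. The respiratory chain thus held the smallest differences of these lists. Bcat2, the mitochondrial aminotransferase that opens branched chain amino acid breakdown, measured 9.39, 9.76, 9.37 and 9.55 at 15 weeks and 7.89, 8.04, 8.25 and 8.32 at 20 weeks (log2 difference -1.39, SE 0.12, limma adjusted p = 4.35e-05). Further along that pathway Ivd, Auh and Pccb fell by 1.52, 0.92 and 1.09 (limma adjusted p = 6.76e-05, 5.34e-05 and 0.000148). In fatty acid oxidation Cpt2, which reforms acyl-CoA inside the mitochondrion, fell by 1.53, and the carnitine carrier Slc25a20 by 1.39 (limma adjusted p = 0.00151 and 0.000994). The list's exception was Cpt1a, the gatekeeper isoform of liver and many other tissues (0.22, limma adjusted p = 0.0852). Without replicate 1 at 20 weeks, Cpt1a passed (0.29, limma adjusted p = 0.0199). Dlat and Pdhb, subunits of the pyruvate dehydrogenase complex, fell by 1.46 and 1.20, Sdhb of succinate dehydrogenase by 0.66 and malate dehydrogenase Mdh2 by 0.56 (limma adjusted p = 0.00114, 0.000724, 0.00087 and 0.000522). The complex I subunits Ndufs1, Ndufb8 and Ndufa5 fell by 0.96, 0.64 and 0.48 (limma adjusted p = 0.000983, 0.00111 and 0.000454). Adipocyte markers (Adipoq, -1.44) and muscle markers (Ckm, -0.63) fell beside these lists, and their part was not tested.

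Glycolysis did not follow as a whole. Of 15 measured members 5 fell and 2 rose, with a median of -0.064, and with cyclic loess normalization 8 fell. Hk2, the insulin-responsive hexokinase of fat and muscle, measured 12.16, 12.11, 12.44 and 12.09 at 15 weeks and 9.99, 10.55, 10.72 and 11.41 at 20 weeks (log2 difference -1.53, SE 0.25, limma adjusted p = 0.000934). The phosphofructokinases Pfkl and Pfkm differed by -1.09 and -1.06, whereas Slc2a1, the broadly expressed glucose transporter GLUT1, rose by 0.63 (limma adjusted p = 0.00215, 0.00127 and 0.000145). The 2 glucose transporters Slc2a4 and Slc2a1 thus moved in opposite directions.

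Outside the lists, 7 further genes were among the steepest falls. B3galt2, a galactosyltransferase, measured 8.92, 9.19, 8.90 and 9.16 at 15 weeks and 5.36, 6.25, 5.65 and 6.98 at 20 weeks (log2 difference -2.98, SE 0.29, limma adjusted p = 9.02e-05), and Ptger3, the prostaglandin E2 receptor EP3, measured 11.66, 11.64, 11.84 and 11.64 at 15 weeks and 8.71, 9.08, 8.42 and 9.79 at 20 weeks (log2 difference -2.69, SE 0.24, limma adjusted p = 5.95e-05). Acaa1b, a peroxisomal thiolase, fell by 2.56, and the carboxylesterase Ces1f fell by 2.46. Amylase Amy1 differed by -2.33, the aldehyde dehydrogenase Aldh1a7 by -2.30 and the membrane protein Tmem45b by -2.27. Their limma adjusted p values were 0.000103, 5.8e-05, 9.05e-05, 0.000369 and 0.00138. Amylase, Ces1 and Aldh1a genes have near-identical copies, so these probe sets may read more than 1 of them.

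Cell cycle genes rose. Of 24 measured genes of DNA replication 20 rose and 0 fell, 12 past 0.25, with a median of 0.56, and of 24 mitotic genes 21 rose and 0 fell, 11 past 0.25 (median 0.53), against 24.7% of all genes. Cdc6, which loads the MCM helicase onto origins, measured 9.13, 9.04, 8.96 and 9.08 at 15 weeks and 10.26, 9.81, 9.73 and 10.01 at 20 weeks (log2 difference 0.90, SE 0.11, limma adjusted p = 0.000205). The helicase subunit Mcm4, the ribonucleotide reductase subunit Rrm2 and thymidine kinase Tk1 rose by 0.65, 0.57 and 0.74 (limma adjusted p = 0.000743, 0.000313 and 0.000782). The mitotic kinase Aurka measured 8.95, 8.86, 8.87 and 8.84 at 15 weeks and 9.73, 9.54, 9.46 and 9.49 at 20 weeks (log2 difference 0.68, SE 0.067, limma adjusted p = 9.1e-05). The checkpoint kinase Bub1, survivin Birc5 and the spindle protein Nusap1 rose by 0.77, 0.78 and 0.64 (limma adjusted p = 0.000454, 0.000659 and 0.000231). Mki67, which encodes the proliferation antigen Ki-67, measured 11.85, 11.77, 11.79 and 11.76 at 15 weeks and 12.56, 12.11, 11.78 and 11.89 at 20 weeks, and the ages overlapped (log2 difference 0.29, SE 0.15, limma adjusted p = 0.118). Without replicate 3 at 20 weeks, Mki67 passed (0.40, limma adjusted p = 0.0395).

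Since large T antigen releases E2F factors from the Rb proteins, the promoters of these genes were read for the sites of that control. E2F sites were searched as TTTCCCGC, TTTGGCGC, TTTCGCGC or TTTGCCGC, and the cell cycle homology region (CHR), which the DREAM complex uses at mitotic genes, as TTTGAA or TTCGAA, both on either strand. In 3 replication genes that rose, Cdc6, Rfc3 (0.75) and Mcm5 (0.65), the E2F matches (capitals) were these, in RefSeq sequence of GRCm38.p6 on the gene's strand. Each string is 100 bases upstream of the start, beginning at -188 in Cdc6, -199 in Mcm5 and -100 in Rfc3. A match read on the other strand appears as its complement, as in Cdc6, and overlapping matches run together, as in Mcm5.

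Cdc6, chr11:98907963-98908062, + strand: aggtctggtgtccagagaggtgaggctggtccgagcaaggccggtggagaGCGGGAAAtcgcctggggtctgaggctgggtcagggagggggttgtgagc

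Mcm5, chr8:75109310-75109409, + strand: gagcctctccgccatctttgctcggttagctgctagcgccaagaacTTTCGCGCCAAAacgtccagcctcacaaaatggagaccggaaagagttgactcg

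Rfc3, chr5:151651209-151651308, - strand: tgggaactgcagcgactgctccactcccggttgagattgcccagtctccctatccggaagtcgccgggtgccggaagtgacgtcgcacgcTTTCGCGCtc

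In 3 mitotic genes, Prc1 (0.47), Cdk1 (0.54) and Ccnb2 (0.63), the CHR matches (capitals) were the following, in strings that begin at -100 from the start in Prc1 and in Cdk1 and at -217 in Ccnb2.

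Prc1, chr7:80294376-80294475, + strand: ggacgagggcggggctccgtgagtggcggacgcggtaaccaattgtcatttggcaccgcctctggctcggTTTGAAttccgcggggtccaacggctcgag

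Cdk1, chr10:69352913-69353012, - strand: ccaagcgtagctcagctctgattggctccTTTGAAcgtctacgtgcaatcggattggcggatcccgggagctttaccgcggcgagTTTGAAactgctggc

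Ccnb2, chr9:70421672-70421771, - strand: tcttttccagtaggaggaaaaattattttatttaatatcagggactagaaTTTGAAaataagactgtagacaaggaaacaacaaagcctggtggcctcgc

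E2F matches lay in 10 of 21 replication genes with a promoter entry (47.6%), in 1 of 20 mitotic genes (5.0%) and in 3.81% of all genes. CHR matches lay in 16 of 20 mitotic genes (80.0%), in 5 of 21 replication genes (23.8%) and in 17.5% of all genes. The 2 lists, with medians of 0.56 and 0.53, thus differed in these letters. These shares describe the promoters and do not use the expression values of these arrays beyond the choice of genes.

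The Rb, E2F and p53 pathway, which large T antigen targets, held 12 genes that rose and 1 that fell among 22 measured (median 0.22). Ccne1, cyclin E1, which drives entry into S phase, measured 8.36, 8.40, 8.33 and 8.30 at 15 weeks and 9.14, 9.12, 9.08 and 8.95 at 20 weeks (log2 difference 0.72, SE 0.057, limma adjusted p = 3.25e-05). Ccne2, cyclin E2, measured 9.21, 9.11, 8.84 and 9.04 at 15 weeks and 10.62, 10.42, 10.43 and 9.96 at 20 weeks (log2 difference 1.31, SE 0.14, limma adjusted p = 0.000108). Cdkn2a, the locus of p16 and ARF, measured 9.20, 8.96, 9.11 and 8.81 at 15 weeks and 10.13, 10.30, 9.99 and 9.997 at 20 weeks (log2 difference 1.08, SE 0.099, limma adjusted p = 6.21e-05). The 3 genes were higher in every 20 week gland than in any 15 week gland. Mdm2, the p53 ubiquitin ligase and a p53 target, rose by 0.58 (limma adjusted p = 0.000112), and the member that fell was Ccng1, cyclin G1, another p53 target (-0.63, limma adjusted p = 0.0263). Ccng1 missed the threshold without replicate 2 or 4 at 15 weeks or replicate 2 at 20 weeks (limma adjusted p from 0.0521 to 0.0674). In the DNA damage repair list 5 of 13 members rose and 1 fell (median 0.25), and 9 without replicate 3 at 20 weeks. Brca1 rose by 0.83 and the mismatch repair gene Msh6 by 0.62, while Fancd2 of the Fanconi pathway fell by 0.61 (limma adjusted p = 0.000833, 0.00126 and 0.000181). The probe sets of Fancd2 disagreed, and their mean did not pass (-0.14, limma adjusted p = 0.208).

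Matrix proteins of activated stroma rose. Of 17 measured 11 rose and 1 fell, 9 rose past 0.25, and the median was 0.60. Ccn2, connective tissue growth factor, measured 10.30, 10.13, 10.21 and 10.22 at 15 weeks and 11.64, 11.62, 11.48 and 11.49 at 20 weeks (log2 difference 1.34, SE 0.061, limma adjusted p = 4.72e-06). Tnc, tenascin C, a matrix protein of remodelling and tumor stroma, measured 10.40, 10.03, 10.17 and 9.88 at 15 weeks and 12.21, 11.52, 11.79 and 11.93 at 20 weeks (log2 difference 1.74, SE 0.15, limma adjusted p = 5.08e-05). Thrombospondin 1 (Thbs1) rose by 0.99 and fibulin 2 (Fbln2) by 0.77 (limma adjusted p = 3.8e-05 and 9.44e-05). The member that fell was Spon2 (-0.60, limma adjusted p = 0.0402). Spon2 missed the threshold without any of replicates 1, 2 or 4 at 15 weeks or replicate 2 at 20 weeks (limma adjusted p from 0.0596 to 0.101). Among fibrillar collagens and their processing enzymes, 9 of 22 rose and 0 fell (median 0.22). The risers named by the smallest p were a fibril-associated collagen and processing enzymes. Col12a1 measured 9.62, 9.44, 9.38 and 9.47 at 15 weeks and 11.47, 11.03, 11.06 and 11.12 at 20 weeks (log2 difference 1.69, SE 0.10, limma adjusted p = 1.05e-05), the crosslinking enzyme Lox rose by 1.16, the procollagen C-proteinase enhancer Pcolce by 0.71 and the prolyl hydroxylase subunit P4ha2 by 0.73 (limma adjusted p = 0.000357, 5.34e-05 and 0.000345). Col1a1, the bulk collagen of fibroblasts, measured 11.67, 11.88, 11.62 and 11.82 at 15 weeks and 11.66, 12.32, 11.98 and 12.26 at 20 weeks (log2 difference 0.31, SE 0.14, limma adjusted p = 0.0895). Without replicate 1 at 20 weeks, Col1a1 passed (0.45, limma adjusted p = 0.00415).

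Several genes outside these lists were among the steepest rises. C1qtnf3, a C1q- and TNF-related cytokine, measured 7.19, 6.74, 6.72 and 6.40 at 15 weeks and 9.19, 9.35, 9.47 and 9.45 at 20 weeks, a 6.06-fold rise (log2 difference 2.60, SE 0.15, limma adjusted p = 8.59e-06). Bst1, a surface enzyme also known as CD157, measured 7.35, 7.40, 7.28 and 7.40 at 15 weeks and 10.11, 10.06, 9.85 and 9.46 at 20 weeks (log2 difference 2.51, SE 0.13, limma adjusted p = 5.37e-06), and Tnfrsf11b, osteoprotegerin, the decoy receptor of RANKL, measured 7.32, 6.79, 7.13 and 6.88 at 15 weeks and 9.61, 9.41, 8.55 and 9.20 at 20 weeks (log2 difference 2.16, SE 0.21, limma adjusted p = 8.63e-05). The short-chain collagens Col8a1 and Col8a2 rose by 2.15 and 1.81, lubricin Prg4 by 1.91, the matricellular protein Ccn3 by 1.54, fibrillin 2 (Fbn2) by 1.52, aggrecan (Acan) by 1.52 and the protease inhibitor homolog Ctla2a by 1.78. Their limma adjusted p values were 3.37e-05, 0.000292, 0.000946, 0.00664, 0.00222, 0.00011 and 0.000321.

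**Figure D3:**
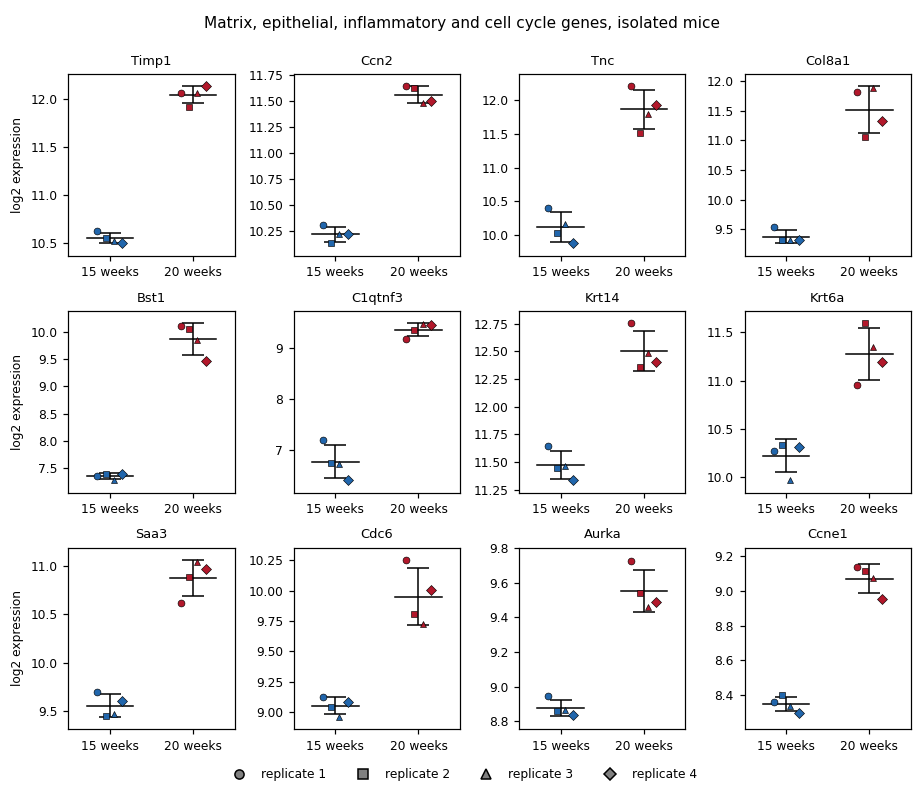
Log2 expression of 12 matrix, epithelial, inflammatory and cell cycle genes on each array at 15 and 20 weeks, with bars at the mean and error bars of 1 SD (n = 4). All 20 week arrays lie above all 15 week arrays in every panel, by 0.72 on average for Ccne1 and 2.60 for C1qtnf3. The genes were picked from those named in the text. Over all genes, the ages did not overlap in 48.5%.

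Of 20 metalloproteinases and inhibitors 10 rose, 4 of them past 0.25, and 2 fell (median 0.30). Timp1, a secreted metalloproteinase inhibitor, measured 10.63, 10.56, 10.52 and 10.51 at 15 weeks and 12.06, 11.92, 12.05 and 12.13 at 20 weeks (log2 difference 1.48, SE 0.06, limma adjusted p = 2.16e-06), while Timp4, the adipose inhibitor, fell by 0.75 (limma adjusted p = 8.63e-05). The aggrecanases Adamts4 and Adamts1 rose by 0.90 and 0.74 (limma adjusted p = 2.12e-05 and 0.00031). Mmp13, collagenase 3, measured 7.20, 6.03, 7.03 and 5.72 at 15 weeks and 10.44, 9.12, 6.88 and 9.01 at 20 weeks (log2 difference 2.37, SE 0.66, limma adjusted p = 0.0144), a gene added after its values were seen. Basement membrane genes split, with 4 of 18 risen and 8 fallen (median -0.22). The laminin chains Lama2, Lama1 and Lama4 fell by 1.52, 0.90 and 0.72, and the collagen IV chain Col4a6 rose by 0.53 (limma adjusted p = 0.000332, 3.23e-05, 0.00147 and 0.000898). Lama2 and Lama4 are chains of muscle, fat and vessel basement membranes.

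Small proteoglycans and fibroblast markers gave 2 risen and 1 fallen of 17 (median -0.26), and the count of risers was 4 without replicate 1 at 20 weeks. The median net of all genes was 0.014 without replicate 1 at 20 weeks and -0.39 without replicate 3 at 20 weeks, against -0.25 with all arrays. Biglycan, Bgn, measured 11.68, 11.67, 11.60 and 11.52 at 15 weeks and 12.50, 12.50, 12.21 and 12.40 at 20 weeks (log2 difference 0.79, SE 0.076, limma adjusted p = 8.14e-05), and S100a4, a protein of motile and activated fibroblasts, measured 9.77, 9.84, 9.52 and 9.79 at 15 weeks and 10.79, 10.91, 11.39 and 10.66 at 20 weeks (log2 difference 1.21, SE 0.15, limma adjusted p = 0.000225). The actin-severing protein Gsn fell by 0.82 (limma adjusted p = 0.000332). The fibroblast markers Dcn and Pdgfra differed by -0.38 and -0.23 and did not pass (limma adjusted p = 0.235 and 0.164). Without replicate 1 at 20 weeks the difference of Dcn was -0.07 (limma adjusted p = 0.321).

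Hyaluronan and hexosamine genes rose in 8 of 13 cases and fell in 1 (median 0.26), with 5 without replicate 1 at 15 weeks, replicate 3 at 15 weeks or replicate 2 at 20 weeks. Has2, a hyaluronan synthase, measured 7.99, 8.03, 7.92 and 7.76 at 15 weeks and 8.71, 8.45, 9.005 and 9.02 at 20 weeks (log2 difference 0.87, SE 0.12, limma adjusted p = 0.00052). The hyaluronan receptor Cd44 rose by 0.91 and the UDP-glucose dehydrogenase Ugdh by 0.53, while the hexosamine enzyme Pgm3 fell by 0.96 (limma adjusted p = 0.000119, 0.000441 and 2.31e-05). Of 16 integrin subunits 7 rose and 1 fell (median 0.18). Among them, Itgb6, an epithelial subunit that activates latent TGF beta, rose by 0.49 and the common subunit Itgb1 by 0.51 (limma adjusted p = 5.95e-05 and 0.000296).

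The TGF beta and BMP pathway rose in 12 of 22 members, with 0 fallen (median 0.27). Among ligands, Bmp2 measured 7.32, 7.02, 7.13 and 7.17 at 15 weeks and 9.56, 8.81, 8.74 and 8.77 at 20 weeks (log2 difference 1.81, SE 0.17, limma adjusted p = 7.44e-05) and Inhba, the activin A subunit, measured 9.18, 9.19, 9.11 and 9.30 at 15 weeks and 10.06, 10.17, 10.24 and 10.48 at 20 weeks (log2 difference 1.04, SE 0.089, limma adjusted p = 4.67e-05). The pathway inhibitor Skil, itself a target, rose by 0.88 (limma adjusted p = 8.14e-05). Tgfb1 rose by 0.47 on its brightest probe set (limma adjusted p = 0.000359), but its probe set of largest variance fell by 0.47 (limma adjusted p = 0.00126), so no direction is given for it. The 12 risers of the list include Tgfb1 on its brightest probe set. In the Wnt list 9 of 22 rose and 6 fell (median 0.16). The secreted inhibitor Wif1 fell by 1.38, whereas the ligand Wnt7b rose by 0.48 and the antagonists Nkd2 and Dkk3 by 1.01 and 0.49 (limma adjusted p = 0.000486, 0.000391, 0.000468 and 0.00032). Notch genes gave 3 risen and 4 fallen of 17 (median 0.066), neither share above the 24.7% and 25.8% of all genes. The feedback inhibitor Nrarp stood at 0.60, the ligand Dll1 at -0.46 and the glycosyltransferase Mfng at -0.58 (limma adjusted p = 8.14e-05, 0.000416 and 0.000255).

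ErbB ligands moved in opposite directions. The list had 5 risen and 4 fallen of 13 (median 0.08). Ereg, epiregulin, a ligand of EGFR and ErbB4, measured 5.94, 5.82, 5.72 and 5.89 at 15 weeks and 6.82, 7.08, 7.50 and 7.33 at 20 weeks (log2 difference 1.34, SE 0.13, limma adjusted p = 8.48e-05), while Egf measured 8.21, 8.48, 8.32 and 8.38 at 15 weeks and 7.63, 7.61, 7.75 and 7.73 at 20 weeks (log2 difference -0.67, SE 0.067, limma adjusted p = 9.31e-05). The ligand Nrg2 and the feedback inhibitor Errfi1 rose by 0.46 and 0.56 (limma adjusted p = 8.75e-05 and 0.000166). None of the 4 receptor genes passed, with Egfr at 0.08, Erbb2 at 0.12, Erbb3 at -0.086 and Erbb4 at -0.048 (limma adjusted p = 0.456, 0.251, 0.527 and 0.584). Without replicate 3 at 20 weeks, Erbb2 passed (0.19, limma adjusted p = 0.0185). Insulin-like growth factor genes gave 3 risen and 3 fallen of 12 and a median near 0. These shares were close to the 24.7% and 25.8% of all genes. The binding proteins Igfbp3 and Igfbp7 rose by 0.97 and 0.55 and Igfbp6 fell by 1.02, and the growth hormone receptor Ghr fell by 0.82 (limma adjusted p = 0.00292, 0.000191, 0.0146 and 0.00249).

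The luminal epithelial list was divided. Of 19 members 8 rose and 5 fell (median 0.21). The tight junction gene Cldn7 measured 11.03, 10.89, 10.98 and 10.95 at 15 weeks and 12.09, 11.88, 11.64 and 11.79 at 20 weeks (log2 difference 0.89, SE 0.089, limma adjusted p = 9.47e-05), keratin Krt7 rose by 0.55 and the adhesion molecule Epcam by 0.43 (limma adjusted p = 0.000154 and 0.000911). Among the members that fell, Foxa1, the pioneer factor that opens chromatin for the estrogen receptor, measured 9.90, 9.95, 10.12 and 9.99 at 15 weeks and 8.001, 8.34, 8.36 and 8.31 at 20 weeks (log2 difference -1.74, SE 0.088, limma adjusted p = 5.37e-06), and Esr1, the estrogen receptor, measured 10.57, 10.71, 10.79 and 10.73 at 15 weeks and 9.45, 9.78, 9.76 and 9.86 at 20 weeks (log2 difference -0.99, SE 0.092, limma adjusted p = 6.76e-05). For both genes the highest 20 week gland stayed below the lowest 15 week gland. Pgr, the progesterone receptor and an estrogen target, measured 8.96, 9.34, 9.08 and 9.33 at 15 weeks and 7.65, 8.19, 8.14 and 8.30 at 20 weeks (log2 difference -1.11, SE 0.15, limma adjusted p = 0.000332), and was added after its values were seen. Krt8 and Krt18, keratins of all luminal cells, differed by 0.14 and 0.096 and did not pass (limma adjusted p = 0.157 and 0.342). Without replicate 1 at 20 weeks, Krt8 passed (0.20, limma adjusted p = 0.0319).

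Basal and myoepithelial genes split as well, with 4 risen and 6 fallen of 12 (median -0.18). Krt14, a basal keratin, measured 11.64, 11.44, 11.46 and 11.33 at 15 weeks and 12.76, 12.36, 12.48 and 12.41 at 20 weeks (log2 difference 1.03, SE 0.098, limma adjusted p = 7.65e-05), and Krt17 rose by 0.62 (limma adjusted p = 0.00136). The mean of the Krt17 probe sets did not pass (0.16, limma adjusted p = 0.129). The oxytocin receptor Oxtr, which triggers milk ejection, measured 10.33, 10.27, 10.34 and 10.25 at 15 weeks and 8.71, 9.24, 9.07 and 9.13 at 20 weeks (log2 difference -1.26, SE 0.10, limma adjusted p = 3.8e-05). Smooth muscle calponin Cnn1 and actin Acta2, which vessels also express, fell by 0.94 and 0.66 (limma adjusted p = 0.000619 and 0.00189). Krt5 differed by -0.12 and did not pass (limma adjusted p = 0.391). Squamous and cornified epithelium genes, which the skin and squamous tumor areas share, rose in 7 of 15 cases and fell in 1 (median 0.40). Krt6a, a keratin of stressed epithelium, measured 10.27, 10.33, 9.97 and 10.31 at 15 weeks and 10.96, 11.60, 11.35 and 11.19 at 20 weeks (log2 difference 1.05, SE 0.13, limma adjusted p = 0.000291). Its partner Krt16 rose by 0.72, desmoglein Dsg1a by 1.39 and filaggrin Flg by 0.51 (limma adjusted p = 9.02e-05, 0.000365 and 0.000633). Flg was dim, with its highest 20 week array at 5.64 beside a median level of 5.02 for the bacterial controls.

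Acute inflammation genes rose. Of 16 measured 11 rose and 0 fell, 5 past 0.25 (median 0.60). The neutrophil-attracting chemokine Cxcl5 measured 5.24, 5.43, 5.12 and 5.32 at 15 weeks and 7.16, 7.67, 7.36 and 7.89 at 20 weeks (log2 difference 2.24, SE 0.14, limma adjusted p = 1.51e-05), and Saa3, an acute phase protein made by fat, epithelium and macrophages, measured 9.70, 9.45, 9.47 and 9.61 at 15 weeks and 10.61, 10.88, 11.04 and 10.97 at 20 weeks (log2 difference 1.32, SE 0.098, limma adjusted p = 2.71e-05). Cyclooxygenase 2, Ptgs2, rose by 1.23 and the chemokine Cxcl2 by 0.65 (limma adjusted p = 0.0012 and 9.68e-05). The calprotectin genes S100a8 and S100a9, abundant in neutrophils and also made by keratinocytes, rose by 2.09 and 1.31 (limma adjusted p = 0.00192 and 0.0156) and were added after their values were seen. The neutrophil granule gene Ngp and receptor Cxcr2 did not pass (-0.13 and -0.12, limma adjusted p = 0.153 and 0.364).

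Macrophage genes rose in 11 of 19 cases with 0 fallen, but 1 rose past 0.25 (median 0.35). The count was 5 with cyclic loess normalization. It was 4 without replicate 3 at 15 weeks or replicate 2 at 20 weeks, and 6 without replicate 1 at 15 weeks, replicate 2 at 15 weeks or replicate 3 at 20 weeks, and 7 without replicate 4 at 15 weeks. The gene past 0.25 was Ctss, the lysosomal protease cathepsin S, which measured 12.02, 12.08, 11.83 and 12.07 at 15 weeks and 12.45, 12.71, 12.76 and 12.86 at 20 weeks (log2 difference 0.70, SE 0.095, limma adjusted p = 0.000399). The Fc receptor Fcgr1, the actin-binding marker Aif1 and the endotoxin receptor Cd14 rose by 0.67, 0.35 and 0.27 (limma adjusted p = 0.00839, 0.00662 and 0.00851). Cd68, a marker of all macrophages, differed by 0.14 (limma adjusted p = 0.643). Of 15 genes of resident and scavenging macrophages 4 rose and 1 fell (median 0.24), a share of risers close to the 24.7% of all genes. The count of risers was 2 without replicate 1 at 15 weeks, and 8 without replicate 1 at 20 weeks. Arginase, Arg1, measured 9.79, 9.61, 9.70 and 9.52 at 15 weeks and 10.28, 11.19, 11.12 and 11.14 at 20 weeks (log2 difference 1.28, SE 0.19, limma adjusted p = 0.000548), while Retnla, a product of alternatively activated macrophages and of fat, fell by 1.42 and Trem2, a lipid receptor, rose by 0.38 (limma adjusted p = 0.00316 and 0.00129).

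Other immune lists had shares of fallen members near or below the 25.8% of all genes that fell. Class II antigen presentation had 2 risen and 3 fallen of 13 (median -0.14), and the fallen count was 5 without replicate 3 at 20 weeks. The class II master regulator Ciita differed by -0.30 and the dendritic cell chemokine receptor Xcr1 by -0.44, and the dendritic cell factor Batf3 by 0.47 (limma adjusted p = 0.00213, 0.00242 and 0.00201). In the T and NK cell list 5 of 17 fell and 0 rose (median -0.17), and the count was 3 without replicate 1 at 15 weeks, replicate 2 at 15 weeks, replicate 3 at 15 weeks or replicate 2 at 20 weeks, and 11 without replicate 3 at 20 weeks. Granzyme A, Gzma, fell by 0.74 and the regulatory T cell factor Foxp3 by 0.39 (limma adjusted p = 2.12e-05 and 0.00162), whereas the T cell markers Cd3d and Cd3e did not pass (0.15 and -0.18, limma adjusted p = 0.54 and 0.0812). Without replicate 3 at 20 weeks, Cd3e passed (-0.24, limma adjusted p = 0.0152). Of 13 B and plasma cell genes 2 fell and 0 rose (median -0.13), and 6 without replicate 3 at 20 weeks. The fallen genes were the antibody joining chain Jchain (-0.72) and the kinase Blk (-0.25), with limma adjusted p of 0.000274 and 0.00981. Mast cell genes gave 1 risen and 3 fallen of 11 (median -0.20). The fallen count was 1 without replicate 1 at 15 weeks or replicate 2 at 15 weeks, and the median, net of all genes, was 0.018 without replicate 1 at 20 weeks. The mast cell receptor Mrgprb1 differed by -0.27 (limma adjusted p = 0.0125).

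Of 20 chemokines and their receptors 5 rose and 1 fell (median 0.14), a share of risers close to the 24.7% of all genes. The count of risers was 10 without replicate 1 at 20 weeks. The median net of all genes was 0.33 without replicate 1 at 20 weeks, against 0.15 with all arrays. The monocyte-attracting Ccl2 rose by 0.59, the receptor Ccr1 by 0.60 and the scavenger chemokine Cxcl16 by 0.53, while the interferon-induced Cxcl9 fell by 0.94 (limma adjusted p = 0.00299, 0.00231, 0.000293 and 5.7e-05). Of 18 interferon response genes 4 rose (median 0.16), a share below the 24.7% of all genes, with Ifit2 at 0.81 and Irf9 at 0.39 (limma adjusted p = 0.00462 and 0.00729). The median net of all genes was 0.094 without replicate 3 at 15 weeks and 0.084 without replicate 4 at 20 weeks, against 0.17 with all arrays. In the complement list 1 of 11 rose and 1 fell, and the count of risers was 0 with cyclic loess normalization. It was also 0 without replicate 1 at 15 weeks, replicate 2 at 15 weeks, replicate 3 at 15 weeks, replicate 2 at 20 weeks or replicate 3 at 20 weeks, and 5 without replicate 1 at 20 weeks. The riser was C1qa, the macrophage-made first component, which measured 12.05, 12.13, 11.75 and 12.14 at 15 weeks and 12.06, 12.62, 12.69 and 12.38 at 20 weeks, and its ages overlapped (log2 difference 0.42, SE 0.14, limma adjusted p = 0.0346). C1qa missed the threshold without any of replicates 1, 2 or 3 at 15 weeks or replicate 2 or 3 at 20 weeks (limma adjusted p from 0.0508 to 0.0956).

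Other tissues of the gland moved in part. Of 20 endothelial and angiogenic genes 8 fell and 2 rose (median -0.33). The median net of all genes was -0.19 without replicate 1 at 20 weeks and -0.50 without replicate 4 at 20 weeks, against -0.32 with all arrays. VE-cadherin, Cdh5, measured 9.48, 9.28, 9.59 and 9.42 at 15 weeks and 7.83, 8.25, 8.18 and 9.01 at 20 weeks (log2 difference -1.12, SE 0.21, limma adjusted p = 0.00201), and the VEGF receptor Kdr and the sialomucin Emcn fell by 0.62 and 0.73 (limma adjusted p = 0.00185 and 0.000548). Pecam1 differed by -0.37 and did not pass (limma adjusted p = 0.239). Without replicate 4 at 20 weeks, Pecam1 passed (-0.60, limma adjusted p = 0.024). Fast skeletal muscle genes fell in 14 of 16 cases, 6 past 0.25 (median -0.68). Muscle glycogen phosphorylase, Pygm, measured 12.66, 13.11, 12.86 and 13.06 at 15 weeks and 11.04, 12.05, 11.98 and 11.91 at 20 weeks (log2 difference -1.18, SE 0.21, limma adjusted p = 0.00161), and Ckm, Actn3 and Pvalb fell by 0.63, 0.97 and 0.71 (limma adjusted p = 0.00221, 0.00256 and 0.000586). Slow muscle genes gave 2 risen and 0 fallen of 10 (median -0.098). The risers were the tropomyosin Tpm3, whose probe sets disagreed in sign, and the calcium pump Atp2a2 (0.38, limma adjusted p = 0.00169), which other tissues also make. The slow fibre myosin Myh7 measured 7.41, 9.40, 7.24 and 9.41 at 15 weeks and 6.89, 7.98, 7.69 and 6.51 at 20 weeks (log2 difference -1.10, SE 0.55, limma adjusted p = 0.124), a wide spread that the ages shared. In the Schwann cell and nerve list 2 of 7 fell and 1 rose (median -0.14), and 1 without replicate 2 at 20 weeks fell. Cdh19 fell by 0.98 and S100b, also made by adipocytes, by 1.19 (limma adjusted p = 3.96e-05 and 0.0175). S100b missed the threshold without replicate 2 at 20 weeks (limma adjusted p = 0.0508). Of 4 red blood cell genes 0 passed. The heme synthesis gene Alas2 differed by 0.78 (limma adjusted p = 0.242). Without replicate 1 at 20 weeks, Alas2 passed (1.26, limma adjusted p = 0.0213).

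Stress and regulatory lists had medians from -0.091 to 0.37. Hypoxia response genes rose in 8 of 14 cases and fell in 3 (median 0.37). The mTOR inhibitor Ddit4 rose by 0.78 and Ndrg1 by 0.46, while Pdk1, a kinase that shuts off pyruvate dehydrogenase, fell by 1.48 (limma adjusted p = 0.000188, 0.000156 and 0.000435). Immediate early genes rose in 8 of 16 cases and fell in 1 (median 0.25), with Klf4 at 0.78, Ier3 at 0.74, the AP-1 member Fosl2 at 0.71 and Junb at 0.62 (limma adjusted p = 0.000232, 0.000226, 4.35e-05 and 0.000122). Glucocorticoid response genes were split, with 5 risen and 6 fallen of 15 (median -0.091). Hsd11b1, which regenerates active corticosterone and is abundant in fat, measured 12.02, 12.04, 12.06 and 12.04 at 15 weeks and 10.13, 10.71, 10.39 and 11.01 at 20 weeks (log2 difference -1.48, SE 0.16, limma adjusted p = 0.000125). The inducible cell cycle inhibitor Cdkn1c fell by 1.11 and metallothionein Mt2 rose by 1.00 (limma adjusted p = 0.000269 and 0.000259). In the circadian clock list 6 of 16 rose and 4 fell (median 0.055), with Clock at 0.48 and the repressor Bhlhe40 at 0.47 (limma adjusted p = 0.000106 and 0.000403).

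Housekeeping machinery moved little in size. Endoplasmic reticulum chaperones rose in 8 of 17 cases and fell in 2 (median 0.16), with 5 without replicate 1 at 15 weeks or replicate 3 at 15 weeks. The chaperone BiP, Hspa5, rose by 0.37 and its helper Sdf2l1 by 0.58 (limma adjusted p = 0.000723 and 0.000708). Proteasome subunits rose in 8 of 18 cases and fell in 1 (median 0.14), with 5 without replicate 3 at 15 weeks, and cytosolic ribosome genes rose in 10 of 14 (median 0.21). In the proteasome and ribosome lists 0 genes passed the test against 0.25, and the largest difference was 0.42 in the former and 0.31 in the latter. With cyclic loess normalization the counts of risen members were 4 for chaperones, 3 for the proteasome and 0 for the ribosome, so the rises of these lists depended on the normalization.

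The glands differed more among themselves at 20 than at 15 weeks. The SD over the 4 arrays was larger at 20 weeks in 13050 genes (71.7%), with a median SD of 0.0705 at 15 weeks and 0.110 at 20 weeks. Over all genes, the log2 difference of 2 arrays of the same age had an SD of 0.111 to 0.172 at 15 weeks and 0.210 to 0.347 at 20 weeks. The first principal component, with 73.4% of the variance, separated the ages, and on it the fourth 20 week gland lay nearest to the 15 week glands (13.6) and the first farthest (42.0), against -28.7 to -23.1 at 15 weeks. The fatty acid synthesis list averaged 12.72, 12.65, 12.82 and 12.66 at 15 weeks and 11.01, 11.16, 11.12 and 11.93 at 20 weeks. The fourth 20 week gland thus lay nearest to the 15 week levels. The replication list averaged 10.72, 10.63, 10.58 and 10.58 at 15 weeks and 11.45, 11.14, 10.96 and 11.02 at 20 weeks, with the first gland the highest. In the first 20 week gland fast muscle, fibroblast and macrophage lists were the lowest of their age. Macrophages averaged 10.83, 11.31, 11.28 and 11.14 and small proteoglycans and fibroblasts 10.08, 10.99, 11.27 and 10.97. The T and NK cell list averaged 7.68, 7.67, 8.01 and 7.65 and the B and plasma cell list 8.13, 8.10, 8.58 and 8.01, and in both the third gland was the highest and the fourth the lowest. Besides the lists whose left-out values stand above, the median net of all genes moved by over 1.5 times when 1 array was left out in several lists. For milk proteins it went from -0.33 to -0.22 without replicate 1 at 20 weeks or -0.52 without replicate 3 at 20 weeks. For squamous epithelium it went from 0.40 to 0.25 without replicate 3 at 20 weeks. For DNA repair it went from 0.26 to 0.17 without replicate 1 at 20 weeks. For hyaluronan and hexosamine genes it went from 0.26 to 0.40 without replicate 1 at 20 weeks. For resident macrophages it went from 0.25 to 0.41 without replicate 1 at 20 weeks or 0.15 without replicate 3 at 20 weeks. For class II presentation it went from -0.13 to -0.057 without replicate 1 at 20 weeks. For B and plasma cells it went from -0.13 to -0.075 without replicate 3 at 15 weeks or -0.083 without replicate 4 at 20 weeks. For Wnt genes it went from 0.17 to 0.11 without replicate 2 at 20 weeks. For the proteasome it went from 0.15 to 0.096 without replicate 1 at 20 weeks. For Schwann cells it went from -0.14 to -0.084 without replicate 2 at 15 weeks, -0.069 without replicate 1 at 20 weeks or -0.23 without replicate 3 at 20 weeks. The direction did not change in these lists. Medians of the glycolysis, Notch, ErbB, insulin-like growth factor, complement, slow muscle, red blood cell, glucocorticoid and circadian clock lists, all within 0.1 of 0, also moved by over 1.5 times.

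**Figure D4:**
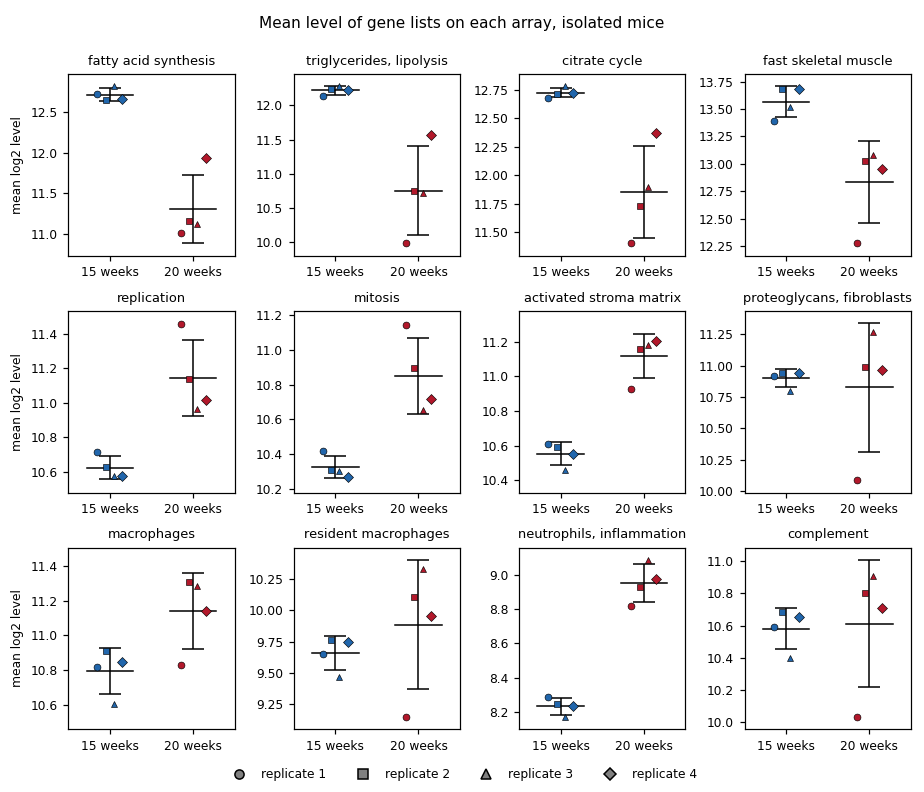
Mean log2 level of the members of 12 gene lists on each array of isolated mice, with bars at the mean and error bars of 1 SD (n = 4). Replicate 1 at 20 weeks (red circles) is the lowest of its age for macrophages (10.83), complement (10.03) and small proteoglycans (10.08) and the highest for replication (11.45).

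The same pair of ages was set side by side in grouped mice, fitted in the same way on their own 8 arrays. There 7013 genes passed (38.5%), and 5536 genes passed in the same direction in both housings, 60.3% of the isolated and 78.9% of the grouped calls, with 14 in opposite directions. The housings share no array but share whatever separates the 2 ages technically. The test of the difference itself, the interaction of housing and age over all 16 arrays, in which an offset common to both housings cancels, called 0 genes in limma. At an unadjusted p below 0.05 it held 2389 genes (13.1%), and the smallest adjusted p was 0.0971. Single arrays decided that count. It was 172 without replicate 4 of the isolated mice at 20 weeks (45 higher and 127 lower in isolated mice), 78 without replicate 3 of the grouped mice at 20 weeks (67 and 11), and 2 without replicate 2 of the grouped mice at 15 weeks or replicate 1 at 20 weeks. Differences between the housings are therefore given as values.

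Adipose and lipid lists had lower medians in isolated mice. The fatty acid synthesis median was -1.35 in isolated and -0.40 in grouped mice, and that of triglyceride genes -1.58 and -0.74. In the interaction 15 of 20 fatty acid genes and 11 of 19 triglyceride genes were below an unadjusted p of 0.05, beside 13.1% of all genes. The adipokine and adipocyte list held 4 of 14, cholesterol synthesis 9 of 19, brown and beige fat 2 of 12 and fatty acid oxidation 1 of 16, the last below that background. Acaca differed by -1.59 in isolated and -0.25 in grouped mice and Acly by -1.30 and -0.17. Fast muscle genes had medians of -0.68 and -0.009, with 14 of 16 below that p. Macrophage genes had medians of 0.35 and -0.44, with 16 of 19 below it, and activated stroma matrix genes 0.60 and -0.057, with 9 of 17. The cell cycle medians, isolated then grouped, were 0.56 and 0.47 for replication and 0.53 and 0.61 for mitosis, with 0 members of either below an unadjusted interaction p of 0.05. The caseins were lower at 20 weeks in both, with Csn2 at -3.15 and -1.47 and Csn1s2a at -4.52 and -2.17.

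The 3 genes with the smallest interaction p were Sprr2f, of the cornified envelope, Rgs13, a regulator of G protein signalling, and Dusp26, a phosphatase. Sprr2f measured 7.08, 6.96, 6.81 and 7.09 at 15 weeks and 5.40, 5.41, 5.45 and 5.42 at 20 weeks in isolated mice, where it fell by 1.57, and differed by -0.53 in grouped mice (interaction -1.04, SE 0.15, limma unadjusted p = 5.34e-06, adjusted p = 0.0971). Rgs13 differed by 0.10 and -0.33, and Dusp26 by -0.94 and -0.43, with limma adjusted interaction p of 0.118 and 0.134. The Sprr2 genes are a family of near-identical copies, so its probe set may read several. None of the 3 passed the adjusted threshold of the interaction with all arrays. In the comparison of ages within isolated mice, Rgs13 missed the threshold with all arrays (limma adjusted p = 0.0746). Without replicate 4 at 20 weeks, Rgs13 passed (0.13, limma adjusted p = 0.0259).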

How the data were processed

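Total RNA of the gland was hybridized to 16 Affymetrix mouse arrays. The deposited log2 values were made by the authors with RMA (affy), per the submitters' processing notes, with the version not given in the sources used here. RMA corrects background, normalizes and summarizes probe sets. Arrays carry no read depth, so their number limits precision.

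Of 45101 probe sets 34958 had 1 gene symbol, 932 several and 9211 none, and 64 were controls. Entrez identifiers of 34741 probe sets matched RefSeq (GRCm38.p6), and 0 symbols changed. The 8 isolated arrays were quantile normalized together. Each of 18193 genes was represented by its brightest probe set (9010 had more than 1). Dim probe sets were kept. Differences were fitted with limma 3.58.1 (lmFit, eBayes with trend) in R 4.3.3, and treat tested against a log2 difference of 0.25. Grouped mice and the interaction were fitted likewise. On simulated data the fit recovered 56 of 67 genes changed by 0.5, 66 of 67 by 1 and 65 of 66 by 2, with 9 false among 196 calls. The simulated noise was independent between genes, with the same SD at both ages, and few genes were changed. On the real arrays 50.4% of genes were called and the spread differed between the ages, so these rates do not carry over to them.

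The comparison's members and the 52 gene lists were chosen with earlier results of these data known. Genes named were the 12 largest called increases and decreases whose ages did not overlap and whose brighter age reached the median level, leaving out clone identifiers. To these were added up to 4 members of each list with the smallest p, the 3 smallest interaction p, cell type markers, and Acaca, Acly, Hk2, Csn2, Mki67 and Adipoq. Any other gene was chosen after its values were seen. Alternatives covered normalization, probe set choice, filters, array weights, the replicate block and leaving out each array.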

Additional observations from a re-analysis of the deposited data

Results flagged for a closer look

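In a group of 4 arrays, an array was set apart when its gap to the nearest array exceeded 0.829 of the group's whole range. Over 564 groups checked (the genes and list means named, at each age) this held for 51, where chance gives about 1 in 20. Replicate 1 at 20 weeks accounted for 13 of them, and replicate 3 at 15 weeks for more than that. Genes of a pathway share arrays, so these are not separate events. Log2 levels are given in brackets. Replicate 1 at 20 weeks was set apart as the highest array for Birc5 (11.26), Bmp2 (9.56) and Tk1 (10.64). Replicate 1 at 20 weeks was set apart as the lowest array for Acta1 (14.11), Arg1 (10.28), Cdkn1c (8.44), Dcn (12.17), Foxa1 (8.001), Lama2 (7.99), Pfkm (10.92) and Pygm (11.04) and for the list means of matrix proteins of activated stroma (10.93), fast skeletal muscle (12.27). Replicate 3 at 20 weeks was set apart as the highest array for Cd3d (7.95), Cd79a (7.96) and Flg (5.64) and for the list mean of T and NK cells (8.01). Replicate 3 at 20 weeks was set apart as the lowest array for Erbb3 (10.33) and Pcolce (12.28). Replicate 4 at 20 weeks was set apart as the highest array for Acaa1b (9.03), Acaca (12.51), Acly (13.47), Acss2 (11.08), Aldh1a7 (9.93) and Trem2 (8.89) and for the list means of fatty acid synthesis (11.93), integrins (9.47). Replicate 1 at 15 weeks was set apart as the highest array for Col8a1 (9.54), Dsg1a (6.45) and Krt7 (11.62). Replicate 1 at 15 weeks was set apart as the lowest array for Acaa1b (10.39) and Ivd (11.61). Replicate 3 at 15 weeks was set apart as the highest array for Acacb (12.23), Auh (10.55), Dgat1 (11.36), Emcn (9.98), Kdr (10.49), Mrgprb1 (6.04), Nsdhl (11.56), Ppargc1b (10.51) and Ptger3 (11.84) and for the list means of fatty acid oxidation (12.51), endothelium and angiogenesis (9.42). Replicate 3 at 15 weeks was set apart as the lowest array for Irf9 (9.21), Krt6a (9.97), Mt2 (11.33), Nrg2 (7.66) and Rrm2 (10.87) and for the list mean of small proteoglycans and fibroblasts (10.80). Replicate 4 at 15 weeks was set apart as the highest array for the list mean of circadian clock (9.18). Replicate 4 at 15 weeks was set apart as the lowest array for Bhlhe40 (11.36). Aif1, a marker of macrophages, lay higher on every 20 week than on every 15 week array of isolated mice (0.35) and lower on every one in grouped mice (-0.45). The interaction of 0.80 had an unadjusted limma p of 5.32e-05 and an adjusted p of 0.134, which did not pass.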

How the results depend on the processing

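Normalization decided the balance of directions. On the values as deposited 10432 genes were higher and 1693 lower at 20 weeks (86.0% of calls higher), against 4488 and 4689 (48.9%) after quantile normalization, since without it the median of all genes moved by 0.24. With medians aligned the counts were 4818 and 4323, and with cyclic loess 3981 and 5173. Genes at or above the 40th percentile of level gave 5872 calls (2767 lower) of 10916 tested. The test against 0.25 left 2523 calls (1088 higher, 1435 lower), and an adjusted p of 0.01 left 2939 higher genes. Leaving out 1 isolated array gave 7645 to 9231 calls. Other probe set rules, array weights, prior settings and the fit on 16 arrays stayed within 1.5 times of 9177. The interaction called 0 genes on the deposited values and without the trend, and 0 to 172 when 1 array was left out.

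With the replicate number as a block 9199 genes passed (4495 higher, 4704 lower), and 7 in the interaction. Same-numbered arrays of the 2 ages correlated in their deviations by 0.35, 0.21, -0.21 and 0.18, and arrays of different number by -0.30 to 0.24. Whether same-numbered arrays share more than a number was not tested.

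Among 230 genes named, 4904 of 5016 values under alternatives kept their side of the threshold, 76 lost the call and 33 gained it. A change of sign in a gene that passed neither here nor under the alternative was counted as kept. Reversals of called genes came with another choice of probe set. Tgfb1 was -0.47 on its most variable probe set and -0.0007 on the mean of its probe sets, and Tpm3 was -0.89. Probe sets also disagreed in sign for Acta2, Atp2a2, Bub1, Col12a1, Cxcl9, Egfr, Fancd2, Fcgr1, Gsn, Hspa5, Igfbp7, Inhba, Krt17, Mcm5, Mdm2, Nrg2 and Pdgfra. Net of all genes, the medians of the complement, insulin-like growth factor, red blood cell, slow muscle, mast cell and small proteoglycan lists changed sign without single arrays. The complement median also did so on the deposited values and with cyclic loess, and the insulin-like growth factor median with cyclic loess. Alternatives were applied 1 at a time. The files give no detection call, so dim genes were not separated from background.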
